A study of Mus musculus with 4 samples.

Results

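Cytokine and chemokine receptor genes were taken as the protein-coding genes whose symbol begins with Ccr, Cxcr or Il followed by a number and, for the interleukins, the letter r. Il4ra, Il2ra, Il12rb2 and Ccr7 were left out by the same rule. It found 54 genes, of 50600 genes in the tables and of 21764 protein-coding genes. The rule reads symbols only and no measured value, so it also took in Il1rn, which encodes a secreted antagonist of the interleukin 1 receptor and not a receptor, and Il1rapl1 and Il1rapl2, known mainly from neurons. Gene counts came from total RNA-seq of mouse T-helper 2 (Th2) primary cells of strain C57BL/6NJ, differentiated in culture from CD4 T cells. No genotype change or treatment is named in the labels, age is unknown and sex was not collected, while a time of 16 hours stands only in the headers of the count tables. Replicates 1 to 4, as the libraries are called here, make up a single group, so receptors were compared with each other within libraries and libraries were compared gene by gene.

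Cytokine receptors carry signals from a small number of secreted proteins into the cell, most of them through JAK kinases and STAT factors, and those of the interleukin 1 and interleukin 17 families through adaptor proteins. Chemokine receptors couple to G proteins and steer migration. Which receptors a helper T cell carries differs between subsets: Ccr4 and Ccr8, and the receptors for interleukin 25 and interleukin 33, are known from Th2 cells, Cxcr3 from Th1 cells, Ccr6 and the interleukin 23 receptor from Th17 cells, and Cxcr5 from follicular helper cells.

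Library totals ran from 1688658 to 2222583 counts. The labels call the libraries separate biological replicates and give all 4 a single donor identifier. Nothing in the labels says whether the cells came from separate animals or cultures, so a p-value here reflects only the spread over these 4 samples. The libraries did not look alike in genes of the sex chromosomes: Tsix, the antisense partner of Xist, had 3465, 2990, 3 and 4 counts in replicates 1 to 4, and Ddx3y, on the Y chromosome, had 0, 0, 7 and 7. These genes set replicates 1 and 2 apart from 3 and 4. The test of variation between replicates took all 4 as 1 group and did not model that split. Counting used 1 strand only. Genes that share exon bases with an oppositely oriented gene (called here an exon opposite) made up 22.1% of protein-coding genes and held 86.9 ± 1.92% of protein-coding counts (SD, n = 4). Of all counts in a library, between 5.10% (replicate 3) and 8.09% (replicate 4) fell in genes that lie opposite no other gene. Levels and counts of 0 given here are those on the counted strand. Whether that strand is the strand of the transcripts was not tested here. None of these levels and zeros can therefore be read, by itself, as the level of a receptor's transcripts. In bulk RNA, fewer cells with a receptor and less RNA per cell cannot be told apart. All 10 of 10 T cell markers had a count in each library, with summed levels of 216 to 299 TPM (counts divided by gene length and scaled to a fixed sum per library). Most of that sum came from Cd247, which has an exon opposite, and the other 9 summed to 58.0 to 120.9 TPM. Among these 9, Cd3e also has an exon opposite, at a mean of 3.47 TPM. Of 31 markers of other lineages 4 had counts in all 4 libraries, and they are described with the last results.

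Counts over the receptor genes were few and lay in a small number of them. The 54 genes had 370, 337, 384 and 398 counts in replicates 1 to 4, which is 200.3 ± 20.4 CPM (counts scaled to the library total, SD, n = 4). A count in all 4 libraries was found for 16 of 54, or 29.6%, against 39.0% of all protein-coding genes. A further 11 had counts in 1 to 3 libraries, with totals of 1 to 19, and 27 had no count in any library. Il6ra alone held 35.7% of the receptor counts, and Il6ra, Il17ra and Ccr4 together 67.3%. A mean level of 10 TPM was passed by 2 genes, Il6ra and Ccr4. For the 27 genes at 0, the limit of 3 counts over the group allows a level of up to 0.063 TPM for the long gene Il1rapl1 and up to 0.505 TPM for the short gene Ccr1l1. Limits and intervals cover counting error only.

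**Figure D1:**
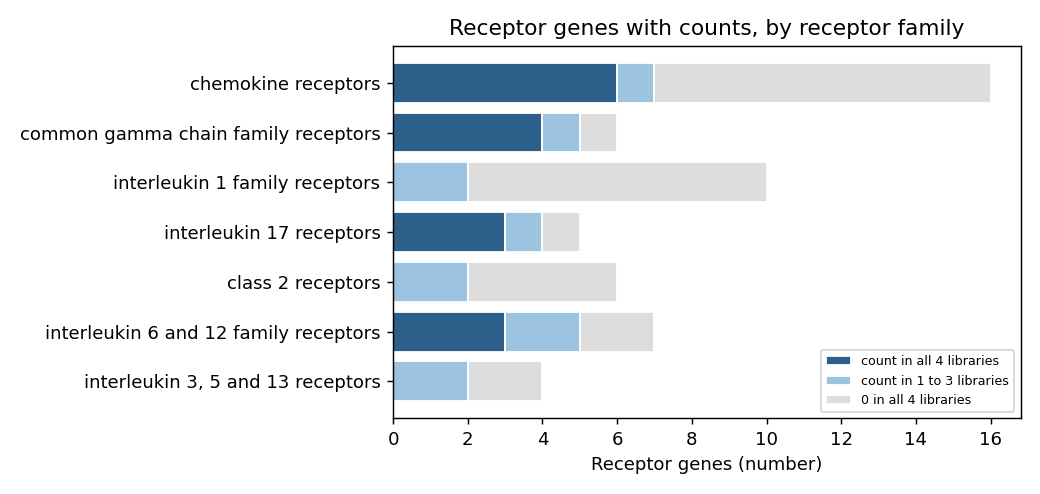
Number of receptor genes (x axis) in each receptor family (y axis) with a count in all 4 libraries (dark), in 1 to 3 libraries (light) or in none (grey). Chemokine receptors had 6 of 16 genes with counts in all 4 libraries, and the interleukin 1 family had 0 of 10.

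Of the receptors of the interleukin 6 and 12 families, 3 of 7 had counts in all 4 libraries, and these 7 genes held 590 counts, 39.6% of the receptor counts. Nearly all of these came from Il6ra (ENSMUSG00000027947.11, chromosome 3, 89864059 to 89913196, minus strand, mm10), the binding chain for interleukin 6. Il6ra had 145, 117, 115 and 154 counts in replicates 1 to 4, a level of 12.2 ± 2.49 TPM (SD, n = 4), above 92.5% of protein-coding genes. The median level was 0.128 TPM over all protein-coding genes and 1.5 TPM over those with an exon opposite. The first exon of Il6ra lies wholly inside the exon of Gm42809, an antisense gene on the plus strand (89912916 to 89914053). The overlap is 242 bases or 2.80% of the exon length of Il6ra. Gm42809 had 333, 260, 421 and 358 counts, 235 ± 24.9 TPM (SD, n = 4). By TPM, replicate 1 was highest for both genes, while replicate 3 was lowest for Il6ra and replicate 2 for Gm42809. Reads that fall in the shared 242 bases are told apart by strand only, so the level of Il6ra is uncertain there. The doubt is not confined to those bases. All counts of Il6ra are on the counted strand, and whether that is the strand of its transcripts was not tested.

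Sequence at the start of Il6ra is shown because the exon of its antisense partner runs across it, from inside the gene to beyond its start. The first sequence holds the 250 bases before the RefSeq start of Il6ra (GRCm38.p6, chr3:89913197-89913446, minus strand), all inside the exon of Gm42809. Capitals mark the match to AGATAA on the other strand, a motif of GATA factors, which begins 245 bases before the start.
Il6ra, before the start: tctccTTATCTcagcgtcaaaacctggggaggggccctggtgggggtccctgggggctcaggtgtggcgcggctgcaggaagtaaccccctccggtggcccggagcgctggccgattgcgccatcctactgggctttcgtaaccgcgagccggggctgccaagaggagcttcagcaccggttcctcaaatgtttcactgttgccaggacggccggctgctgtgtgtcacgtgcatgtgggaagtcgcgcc
The second is the coding part of the first exon, 85 of the 242 bases shared with Gm42809 (GRCm38, chr3:89912955-89913039, minus strand), from the GENCODE transcript, with the start codon in capitals.
Il6ra, first coding bases: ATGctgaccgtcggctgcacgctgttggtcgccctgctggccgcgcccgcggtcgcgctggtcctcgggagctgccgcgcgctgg

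The other receptors of this group were low. Il27ra, the binding chain for interleukin 27, had 4, 8, 6 and 8 counts (1.48 ± 0.486 TPM, SD, n = 4). It meets Palm3 on the other strand by only 2 bases, and Palm3 had 355, 246, 377 and 390 counts. Il12rb1, the chain shared by the interleukin 12 and interleukin 23 receptors, has no gene opposite and had 4, 12, 3 and 8 counts (1.35 ± 0.903 TPM, SD, n = 4). By TPM, replicate 2 was highest for both genes. Il31ra, the receptor chain for interleukin 31, had 0, 1, 2 and 0 counts. Il11ra1, a chain of the interleukin 11 receptor, had 0, 1, 0 and 2. Il11ra1 has a close copy, Il11ra2, which had no count, and reads shared between them may be assigned to neither, so both are uncertain. Il23r, the chain particular to the interleukin 23 receptor, also had no count.

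Receptors for the interleukin 17 family, which signal through the adaptor Traf3ip2, held 399 counts, 26.8% of the receptor counts, and 3 of 5 had counts in all 4 libraries. None of the 5 has an exon opposite. Il17ra, the chain shared by the receptors of this family (chromosome 6, 120463247 to 120487559, plus strand), had 65, 71, 97 and 71 counts. Its level of 6.86 ± 0.539 TPM (SD, n = 4) had the smallest ratio of highest to lowest library, 1.17, of the 16 genes with counts throughout. Il17rb, the chain that binds interleukin 25 (chromosome 14, 29996141 to 30008896, minus strand), had 16, 10, 22 and 8 counts, 3.97 ± 1.48 TPM (SD, n = 4). Il17rc, the partner chain for interleukin 17A and 17F, had 5, 9, 15 and 8 counts, 2.66 ± 0.912 TPM (SD, n = 4). All 3 were highest in replicate 3. Il17re, the chain for interleukin 17C, had 0, 1, 0 and 1 counts. Il17rd had none. Per kilobase of exon, Il17ra was at least 96.2-fold higher than Il17rd. This fold takes 3 counts in the group as the limit for Il17rd and the count of Il17ra as observed. It holds for the counted strand only.

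Il17rb starts close to a gene on the other strand, Chdh, a choline dehydrogenase gene, and the 126 bases between the gene ends are shown because the overlap classes place Il17rb among genes with no gene opposite. The sequence is on the strand of Il17rb and runs toward its RefSeq start (GRCm38.p6, chr14:30008897-30009022). It holds no match to the GATA motif searched, and so no capitals.
Il17rb to Chdh: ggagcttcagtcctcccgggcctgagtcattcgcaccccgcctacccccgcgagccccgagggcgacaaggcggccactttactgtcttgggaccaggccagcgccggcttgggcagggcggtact
Chdh had 4, 0, 1 and 6 counts in replicates 1 to 4, below Il17rb in every library.

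Of 16 chemokine receptor genes 6 had counts in all 4 libraries, and together the 16 held 338 counts, 22.7% of the receptor counts. Ccr4, the receptor for Ccl17 and Ccl22 (ENSMUSG00000047898.7, chromosome 9, 114490316 to 114504916, minus strand), led them and has no gene opposite. It had 39, 47, 34 and 47 counts in replicates 1 to 4, at 10.8, 13.2, 7.36 and 11.9 TPM. Its mean was 10.8 ± 2.49 TPM (SD, n = 4), above 91.9% of protein-coding genes, and replicate 3 was lowest. That background is low: of protein-coding genes with no gene opposite, 30.6% had counts in all 4 libraries, and their median level was 0 TPM. Ccr8, the receptor for Ccl1, had 3, 6, 2 and 6 counts, 2.93 ± 1.54 TPM (SD, n = 4), also lowest in replicate 3. Cxcr3, Ccr6 and Cxcr4 had no count, and Ccr3, known from eosinophils as well as Th2 cells, had none either. Per kilobase of exon, Ccr4 was at least 31.2-fold higher than Cxcr3, 36.5-fold higher than Ccr6, 32.5-fold higher than Cxcr4 and 58.9-fold higher than Ccr3, each taking 3 counts in the group as the limit. Ccr8 was at least 8.35-fold higher than Cxcr3 and at least 15.8-fold higher than Ccr3 on the same scale. All of these are levels on the counted strand. The folds take the counts of Ccr4 and Ccr8 as observed. They leave out the counting error of those counts, which for Ccr8 were only 17.

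Cxcr6, the receptor for Cxcl16, spread most between libraries. It had 10, 3, 28 and 12 counts in replicates 1 to 4, or 4.44, 1.35, 9.70 and 4.85 TPM, a ratio of 7.20 between the highest and the lowest library. It lies within the span of Fyco1 on the other strand without sharing exon bases with it, and Fyco1 had 14, 12, 7 and 14 counts. Replicate 3 was thus highest for Cxcr6 and lowest for Fyco1. Cxcr5, the receptor for Cxcl13, had 7, 8, 7 and 10 counts (1.91 ± 0.401 TPM, SD, n = 4) and shares 110 exon bases with Bcl9l, which had 5, 6, 11 and 7. Ccr10, the receptor for Ccl27 and Ccl28, had 5, 2, 2 and 2 counts and lies within the span of Cntnap1, with 14, 2, 15 and 5. Ccr9, the gut-homing receptor for Ccl25, had 20, 6, 20 and 11 counts, but its long exons of 10260 bases in all bring its level to 1.08 ± 0.512 TPM (SD, n = 4). Cxcr2 had 1 count, in replicate 4, and Cxcr1, Ccr1, Ccr1l1 and Ccr2 had none. Cxcr1 and Cxcr2, and Ccr1 and Ccr1l1, are close copies of each other, so their zeros are uncertain.

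**Figure D2:**
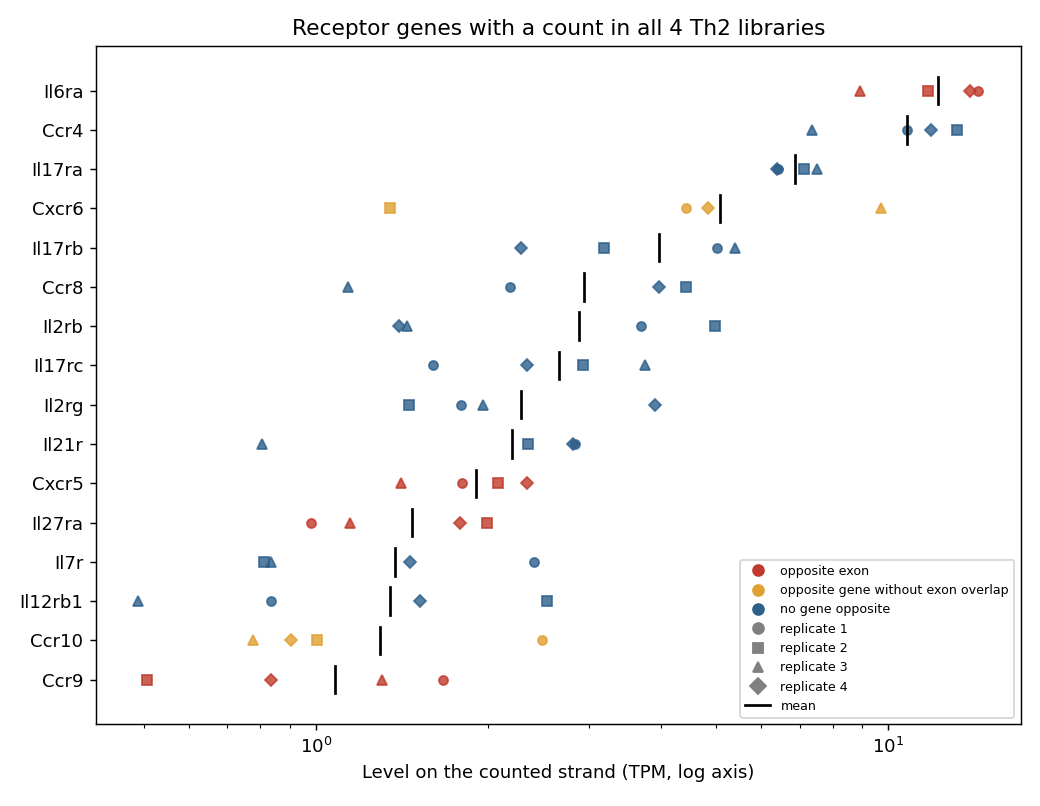
Level on the counted strand (x axis, TPM, log axis) of the 16 receptor genes with a count in all 4 libraries (y axis, ordered by mean), with a symbol shape for each replicate, a colour for the class by the gene opposite and a black line at the mean. Il6ra, Ccr4 and Il17ra lie at 6.39 TPM or above in every library, and Cxcr6 is the most widely spread.

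The receptors that use the common gamma chain included 4 of 6 with counts throughout, at 144 counts or 9.67% of the receptor counts, and none has an exon opposite. Il2rb, which interleukins 2 and 15 share, had 12, 16, 6 and 5 counts, 2.88 ± 1.77 TPM (SD, n = 4). Il2rg, the common gamma chain itself, also used by the interleukin 4 receptor, had 5, 4, 7 and 12 counts, 2.28 ± 1.11 TPM (SD, n = 4). Il21r had 11, 9, 4 and 12 counts, 2.20 ± 0.957 TPM (SD, n = 4). By TPM, Il2rb was highest in replicate 2, Il2rg in replicate 4, and Il21r in replicates 1 and 4, at 2.84 and 2.82 TPM. Il7r, the interleukin 7 receptor of naive and memory T cells, had 9, 3, 4 and 6 counts, 1.38 ± 0.747 TPM (SD, n = 4). Il15ra had 5, 0, 6 and 8 counts. Il9r, the interleukin 9 receptor, had none.

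The remaining 3 groups had no gene with counts in all 4 libraries, and each held 6 counts in all. In the interleukin 1 family, Il1rl2, the receptor for interleukin 36, had 0, 0, 1 and 2 counts. Il1rap, the co-receptor shared across the family, had 1, 1, 0 and 1, and shares 552 exon bases with Gm20319, an antisense gene with 110, 127, 153 and 125 counts. The other 8 of 10 were at 0, among them Il1rl1, the interleukin 33 receptor, and Il18r1 and Il18rap, which form the interleukin 18 receptor. Il17rb was at least 47.2-fold higher per kilobase than Il1rl1. This fold takes 3 counts in the group as the limit for Il1rl1 and the count of Il17rb as observed. Both counts are those on the counted strand, and whether their transcripts differ in this way was not tested. Among the class 2 receptors, Il10rb, shared by the receptors for interleukins 10 and 22, had 1, 1, 1 and 0 counts. Il20rb had 0, 1, 1 and 1, while Il10ra, Il20ra, Il22ra1 and the soluble Il22ra2 were at 0. Of the receptors for interleukins 3, 5 and 13, Il3ra had 3, 0, 1 and 0 counts and Il13ra1, which pairs with the interleukin 4 receptor chain, 0, 0, 0 and 2, with Il5ra and the decoy receptor Il13ra2 at 0.

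The position of a receptor gene relative to genes on the other strand went with how often it had counts, as it did for protein-coding genes in general. Of 6 receptor genes with an exon opposite, 4 had counts in all 4 libraries, or 66.7%, against 65.2% of protein-coding genes of that class. Of 48 without, 12 did, or 25%, against 31.6%. All 27 receptor genes at 0 in every library were among these 48, 22 with no gene opposite and 5 with a gene opposite but no exon overlap. Of 9460 protein-coding genes at 0, 951 had an exon opposite. A count in any library was found for 80.2% of protein-coding genes with an exon opposite, against 6 of 6 receptor genes. The shares with counts in all 4 libraries are near the background of their class. The difference between receptor genes and other genes was not tested. The median of log2(TPM + 1) was higher with an exon opposite by 1.20, 1.09, 1.15 and 1.18 in replicates 1 to 4 for the receptor genes, 1.15 ± 0.05 (SD, n = 4), and by 1.29 ± 0.13 (SD, n = 4) for all protein-coding genes. Among receptor genes with at least 1 count, this difference of medians was 0.0035, so it rests on the genes at 0.

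**Figure D3:**
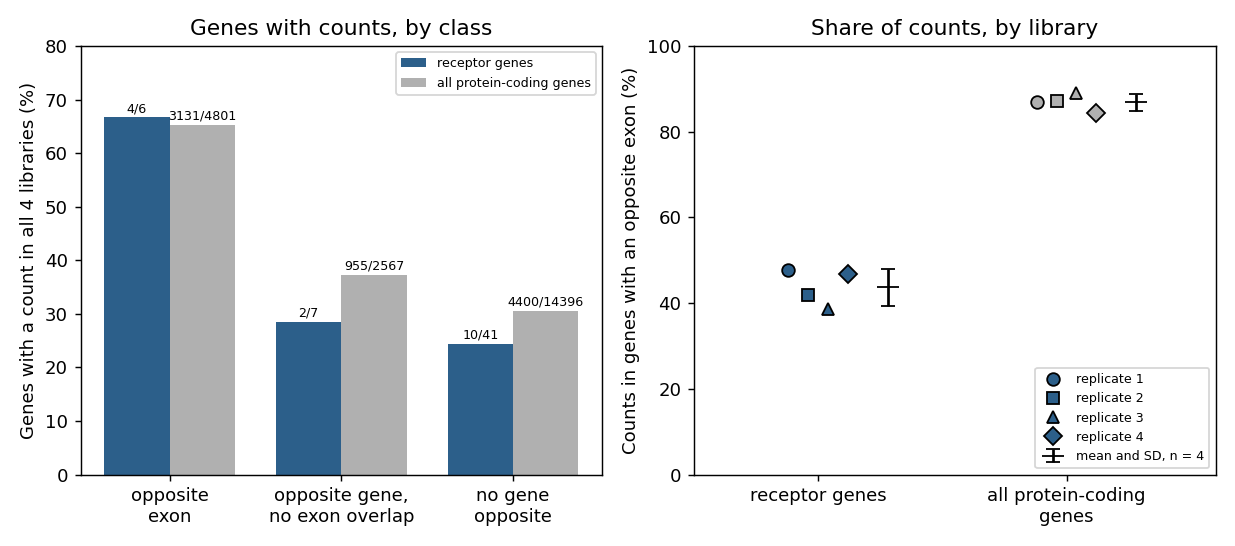
Left: percent of genes with a count in all 4 libraries (y axis) by class of the gene opposite (x axis), for the 54 receptor genes (blue) and all protein-coding genes (grey), with numbers above the bars. Right: percent of counts held by genes with an opposite exon (y axis) in each library, with mean and SD, at 38.5 to 47.8% for receptor genes and 84.3 to 88.9% for all protein-coding genes.

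The share of counts in each class is given as a description, with no test. Receptor genes with an exon opposite held 47.8% of the receptor counts in replicate 1, with a 95% Wilson interval of 42.8 to 52.9. Replicate 2 had 41.8% (interval 36.7 to 47.2), replicate 3 had 38.5% (interval 33.8 to 43.5) and replicate 4 had 46.7% (interval 41.9 to 51.6). The mean of 43.7 ± 4.34% (SD, n = 4) lay below the 86.9% of all protein-coding genes. Both shares come from the same 4 libraries, so the SD does not measure the spread between genes. By number, 11.1% of receptor genes and 22.1% of protein-coding genes have an exon opposite. The share of the receptor genes rests on Il6ra: without it, 12.6% of the receptor counts over the 4 libraries lay in genes with an exon opposite. When only exons of protein-coding partners were used, which leaves out Gm42809, the share was 7.90%. Receptor genes without an exon opposite summed to 114.3, 114.9, 106.2 and 112.7 CPM in replicates 1 to 4. Over the 4 libraries, Il17ra gave 304 and Ccr4 167 of the counts in this sum. The sum does not show how single genes varied.

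Receptor genes and their partners did not follow a common ratio. Gm42809 had more counts than Il6ra in every library, Palm3 more than Il27ra and Gm20319 more than Il1rap. The partners of Ccr9 were instead at 0: AC165425.1, which covers 1932 of its exon bases, and Slc6a20a, which covers 22, had no count in any library. Il11ra1 overlaps Ccl27a, a chemokine gene with 3, 0, 0 and 1 counts, by 8 bases.

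**Figure D4:**
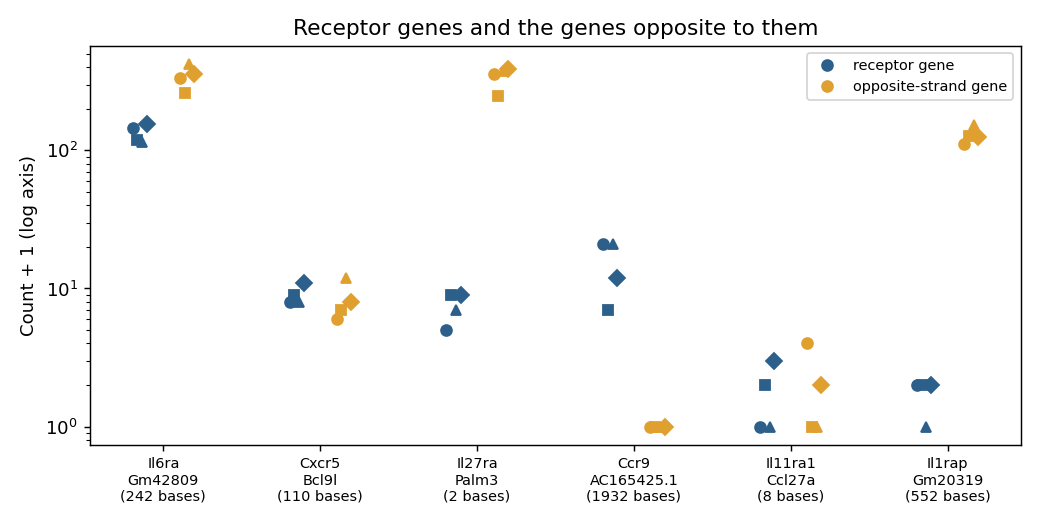
Counts plus 1 (y axis, log axis) in replicates 1 (circle), 2 (square), 3 (triangle) and 4 (diamond) for the 6 receptor genes with an opposite exon (blue) and the gene with the largest exon overlap (orange), with the overlap in bases under each pair. Gm42809, Palm3 and Gm20319 lie above their receptor genes in every library, and AC165425.1 lies at 0 below Ccr9.

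Some receptor genes lie in rows along a chromosome, and a row on chromosome 9 and another on chromosome 1 are described here. On chromosome 9, in a row of chemokine receptor genes, Ccr9 and Cxcr6 had counts, 110 in all. Their neighbours Ccr1, Ccr1l1, Ccr3 and Ccr2 have no gene opposite and had 0 counts. Xcr1, outside the symbol rule, lies between Cxcr6 and Ccr1. It has no gene opposite either and had 0, 2, 1 and 4 counts in replicates 1 to 4. On chromosome 1 (40074079 to 40551705), 6 genes of the interleukin 1 receptor family lie on the plus strand. Of these Il1rl2 had 3 counts and Il1r2, Il1r1, Il1rl1, Il18r1 and Il18rap none. The 5 with no gene opposite, Il1rl2 among them, have 31638 exon bases.

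**Figure D5:**
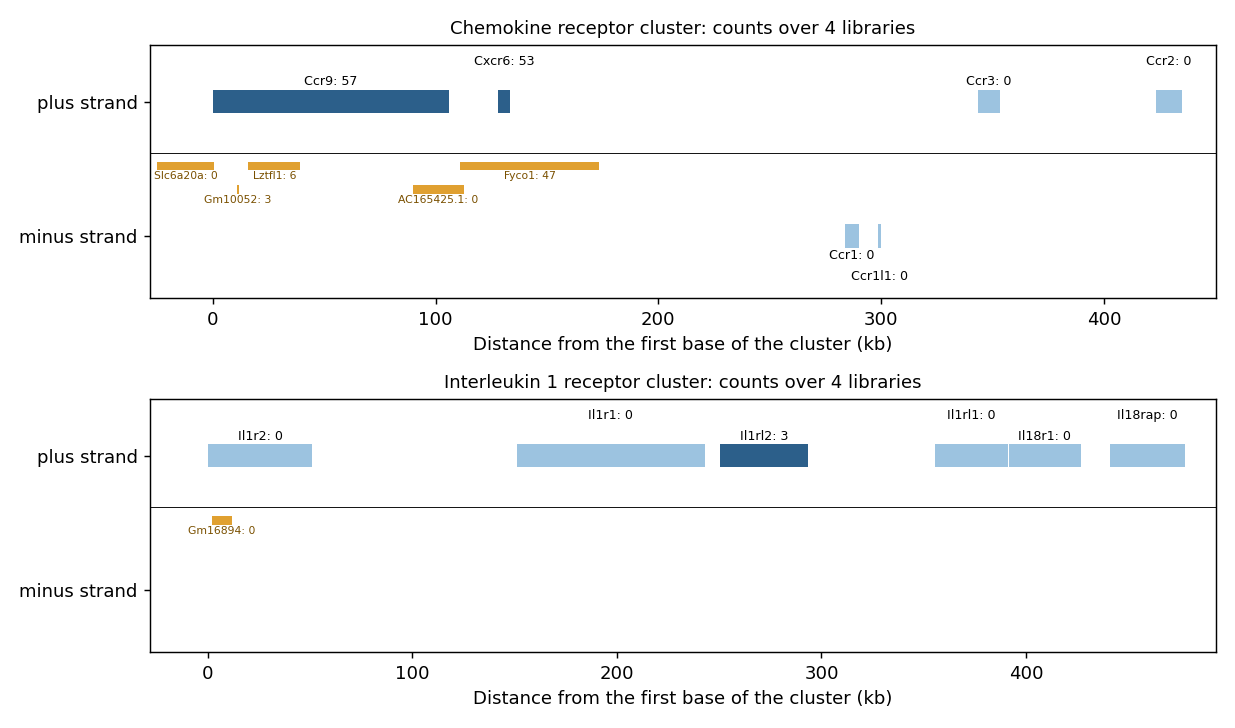
Distance from the first base of each cluster (x axis, kb) of receptor genes (blue, dark where a count was found) and of genes opposite to them (orange), by strand (y axis), with the counts summed over 4 libraries after each symbol. In the chemokine receptor cluster Ccr9 has 57 counts and Cxcr6 has 53, and the receptor genes drawn to their right have 0. Xcr1 is not drawn.

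Between replicates, 0 of the receptor genes were called as varying more than their abundance predicts. The test was edgeR's quasi-likelihood fit with Benjamini-Hochberg adjustment, one-sided, in which 0.447% of 4918 genes tested were called. Only Il6ra, Il17ra and Ccr4 had enough counts in every library to be tested, and their unadjusted edgeR p-values were 0.427, 0.708 and 0.585, each with an adjusted p of 0.991. At an unadjusted p under 0.05, 0 of the 3 passed. Cxcr6 was too low in replicate 2 to enter. With a mean count of 10 or more as the filter, its edgeR p was 0.0286 and the adjusted p 0.72, so it was not called. With no filter beyond a count in any library, 27 receptor genes entered, and 0 were called. Cxcr6 then had an unadjusted edgeR p of 0.0192 and an adjusted p of 0.898. Of the 16 genes with counts throughout, 12 had a highest library more than 2 times the lowest. The lowest library was replicate 3 for 7 of the 16, replicate 2 for 4, replicate 4 for 3 and replicate 1 for 2. Replicate 3 also had the lowest share of all counts in genes with no gene opposite, 5.10% against 6.30 to 8.09% in the others, and the part of this in the receptor levels was not tested.

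The wider set of 50 signalling genes had counts in all 4 libraries for 26, in 1 to 3 libraries for 12 and in none for 12. Of these 50, 12 were tested in the edgeR fit and 0 were called. Counts in all 4 libraries were found for 4 of 4 JAK kinases and 6 of 7 STAT factors. An exon opposite was found for 2 of these JAK kinases and 3 of the STAT factors, Stat3 and Stat6 among them. Stat3 was at 11.0 ± 1.32 TPM and Stat6 at 8.53 ± 1.43 TPM (SD, n = 4). Jak2, with no gene opposite, was at 4.56 ± 2.13 TPM, and Jak3, the kinase that binds the common gamma chain, at 0.828 ± 0.335 TPM (SD, n = 4). Of the feedback inhibitors, 2 of 4 had counts throughout, led by Cish, which has an exon opposite, at 4.29 ± 1.15 TPM (SD, n = 4). Shared receptor chains outside the symbol rule had counts throughout for 1 of 6, Il6st, the signalling chain for interleukin 6, with 18, 14, 12 and 31 counts. Its level of 1.35 ± 0.618 TPM was below that of Il6ra in every library. Il6st has no gene opposite while Il6ra has an exon opposite, and whether their transcripts differ in this way was not tested. Of the adaptors 6 of 7, of the G proteins and their regulators 4 of 7, of the atypical and other chemokine receptors 1 of 7 and of the chemokines 2 of 8 had counts throughout. The highest levels were those of Irak4, a kinase below the interleukin 1 receptor, at 62.6 ± 1.5 TPM and Ackr4, an atypical receptor that takes up chemokines, at 40.8 ± 2.19 TPM (SD, n = 4). Both have an exon opposite, and the 13 genes of the set with one held 83.0% of its counts. Ccl17, a ligand of Ccr4, had 5, 3, 7 and 15 counts with no gene opposite, 11.3 ± 7.82 TPM (SD, n = 4).

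Several receptors known from other cell types had no count, and nor had most markers of those cells. Of 6 CD8 and cytotoxic markers 1, Cd8b1, had counts in every library, with summed levels of 1.73 to 6.44 TPM. Among B cell markers this was 1 of 5, Cd79a (4.82 to 9.53 TPM), with Ms4a1 and Pax5 at 0. Among myeloid markers it was 1 of 5, Csf1r (133 to 163 TPM), which has an exon opposite, with Lyz2, Itgam, Adgre1 and Cd14 at 0. The level of Csf1r lay above the summed level of the T cell markers without Cd247, 58.0 to 120.9 TPM. Among erythroid markers it was 1 of 4, Alas2, also with an exon opposite. Neutrophil markers (4 genes) and NK cell markers (3 genes) were at 0 throughout, and the mast cell and basophil markers had 1 count, of Cpa3, over 4 genes. Ccr2, Ccr1 and Cxcr1, known from monocytes and neutrophils, and Ccr3 and Il5ra, known from eosinophils, were at 0 as well. So were Il1rl1, known from Th2 cells, and Cxcr3, known from Th1 cells. A receptor at 0 therefore does not by itself tell cell types apart here.

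Receptor promoters were searched for 3 motifs in the RefSeq windows of 300 bases around the start, on both strands. Of the 54 genes 44 matched an entry. AGATAA or TGATAA, motifs of GATA factors, was found in 16 of 44, or 36.4%, against 21% of 27025 genes with a window of this length. TTCNNNNGAA, the motif with a spacing known from Stat6, was found in 5 (11.4%, against 8.01%), and TTCNNNGAA, that of other STAT factors, in 6 (13.6%, against 9.55%). Of the 10 matched genes with counts in all 4 libraries, 2 held the GATA motif, Il6ra and Ccr8. Il1rl1, Ccr3 and Il5ra, which had no count, also held it. Some genes have several windows, and a match describes letters in a window and not a bound site.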

How the data were processed

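RNA-seq gene counts of 4 libraries, 1 group, were used as deposited. The authors' counts, whole numbers and not normalised, were made with featureCounts 1.4.6-p4 on mm10 and GENCODE M13 with strand option 1, per the file headers. An aligner is not named in the labels or headers. Per the labels the assay is total RNA-seq, but the protocol they link to is named for poly(A) RNA. Symbols came from GENCODE M21 on the same build, matched for 99.6% of 50600 genes. TPM was computed here from counts and the deposited gene lengths, so a TPM is a share of all counted genes per kilobase. Exon overlap of at least 1 base with a gene on the other strand was found with bedtools 2.31.1. Promoters came from RefSeq (GRCm38.p6). For a gene with 0 counts, 3 counts were taken as the limit. Folds against such a gene leave out the counting error of the higher gene and hold for the counted strand only.

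Differences between replicates were tested in R 4.3.3 with edgeR 4.0.16 (TMM, filterByExpr, robust prior, and a model with an intercept only). The quasi-dispersion of a gene was set against the trend, one-sided, on 3 residual degrees of freedom, and p-values were adjusted by Benjamini and Hochberg over all genes tested, at 0.05. The test was run on simulated data first. Some genes are not reported here. Python 3.11.15, pandas 2.3.3 and scipy 1.17.1 did the rest. The members, the 7 receptor families, the signalling genes and the markers were chosen with earlier results of these data known. Values in every library are given for the 20 receptor genes with the highest mean TPM, for Ccr3, Ccr4, Ccr8, Il1rl1, Il17rb, Il2rg and Il7r, and for the partner with the largest exon overlap. Fyco1, Cntnap1, Chdh, Slc6a20a, Tsix, Ddx3y and the low receptor genes past the first 20 with counts were picked with their values in view. Alternatives covered normalisation, filters, the prior, the pseudocount, length scaling, the overlap and leaving out each replicate.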

Additional observations from a re-analysis of the deposited data

Results flagged for a closer look

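The level of Ccr10 had a library far from the others. Replicate 1 was highest, at 2.48 TPM against 0.775 to 1.01 TPM in the other libraries, and the gap to the nearest library was 0.865 of the whole range, above the 95% critical value of Dixon's test for 4 samples. The values rest on 5, 2, 2 and 2 counts. In all 24 values were checked in this way, and chance alone marks about 1 in 20.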

How the results depend on the processing

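Among all genes, the number called for variation between replicates was 22, and again 22 when DESeq2 size factors replaced TMM. It was 2 with library totals only, 56 with no filter beyond a count in any library, 44 with a mean count of 10 or more, 9 without the robust prior and 11 to 21 with each replicate left out in turn (11 without replicate 4). The number of receptor genes called was 0 under every one of these settings. Receptor genes with counts in all 4 libraries numbered 16, against 10 with a level of 1 TPM or more in every library, 11 with more than 3 counts in every library, 27 with a count in any library and 17 without any 1 of the replicates. The share of receptor counts in genes with an exon opposite, 43.7%, became 7.90% with protein-coding partners only, 26.8% by TPM, and 42.4 to 45.5% with a replicate left out. The difference of medians of log2(TPM + 1), 1.15, became 3.69 with a pseudocount of 0.1, 2.61 with TPM scaled over protein-coding nuclear genes, 2.22 without length scaling, 1.28 with an overlap of at least 100 bases and 0.0035 among genes with a count. TPM scaled over protein-coding nuclear genes was 4.19 to 4.44 times as high for the 20 receptor genes checked. With a replicate left out, the means of Il3ra and Il31ra moved most in proportion among these 20 genes. They went from 0.581 to 0.16 TPM without replicate 1 and from 0.151 to 0.0789 TPM without replicate 3. In TPM, Cxcr6 moved most, from 5.08 to 3.54 TPM without replicate 3. The cause of these shifts was not tested. Few counts limit every receptor level here.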
